A study of Arabidopsis thaliana with 24 samples.

Results

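The balance between the Ler and Col alleles was read in 6 RNA-seq libraries of prmt5-5 F1 hybrid seedlings, out of 24 libraries in the whole series. They are the 3 libraries of F1 Col x Ler prmt5-5, numbered 25, 26 and 28 (replicates 1, 2 and 3), and the 3 of F1 Ler x Col prmt5-5, numbered 29, 30 and 32 (replicates 1, 2 and 3). The members were chosen by sample label, and for each library 1 count per gene of the Ler allele was set against 1 count of the Col allele. Values from the 6 WT F1 libraries (18, 19 and 20 of F1 Col x Ler WT, and 21, 23 and 24 of F1 Ler x Col WT) and from the parents (3 Ler prmt5-5 and 3 Col prmt5-5 libraries) stand beside them.

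Both parents of the prmt5-5 hybrids carried prmt5-5, so no normal copy of PRMT5 came from either side. Per the labels' protocols, the allele was isolated in the Arabidopsis thaliana accession Columbia (Col-0) and moved into Landsberg erecta (Ler) by 7 rounds of backcrossing to WT Ler plants. Ler itself carries the loss-of-function erecta mutation of a receptor kinase that shapes plant form. Whole seedlings were harvested after 9 days of continuous light at 22 °C on MS agar, following 4 days of stratification at 4 °C. Hybrids are named in the order of the labels, and the seed parent was not read from that order. Libraries were made from the polyadenylated fraction of 3 µg total RNA and sequenced as reads of 100 bp. Nothing in the labels says that replicates were planted apart. The spread that p-values rest on is therefore that of these samples alone and may be technical.

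PRMT5 is the methyltransferase that places symmetric dimethylation on arginines of histones and of the Sm proteins, the ring of the spliceosomal snRNPs. In Arabidopsis its loss is known to alter the splicing of many introns, the pace of the circadian clock and flowering time. In an F1 plant both alleles of a gene sit in the same nuclei and meet the same regulators, so their counts are compared within a library, whereas the parents also differ in everything that acts in trans. The series asks how PRMT5 buffers splicing against natural variation at donor splice sites. The deposited values are totals per gene and allele, and splicing itself was not read from them.

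The 6 prmt5-5 F1 libraries held between 6064866 and 17153604 allele counts, and the 6 WT F1 libraries between 6047694 and 29376408. The Ler share, or Ler counts as a percentage of Ler plus Col counts, was 48.0% to 48.5% of all counts in prmt5-5 F1 and 48.4% to 48.9% in WT F1. Leaf markers (CAB2, LHCB3, GLK1 and RBCS1A) summed to between 4901 and 10420 CPM (counts scaled to the same total in each library, in F1 that of all allele counts) in the prmt5-5 hybrids, root markers to between 153 and 232, and the 8 seed storage markers to between 0.102 and 7.49. Most of the leaf sum was CAB2, at 4216 to 9600 CPM. LHCB3 stood at 319 to 705 CPM and GLK1 at 238 to 276, while RBCS1A had only 7.75 to 16.7 CPM of allele counts. All 7 floral organ markers together reached at most 7.55 CPM, and 6 markers of stomata and epidermis reached 163 to 251. The root markers COBL9 and PIN2 had no allele counts in these 6 libraries, and the part of tissue makeup in the results was not tested. The libraries 28 and 30 stood apart in a list of salicylic acid defence genes, which summed to 2885 and 3159 CPM there, against 787 to 1151 in the other 4 prmt5-5 libraries and 548 to 1703 in WT F1. As the samples are bulk seedlings, fewer cells of a type and less RNA per cell cannot be told apart.

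A total of 16644 genes passed the filter on low counts and were tested for a difference between alleles (edgeR's quasi-likelihood test with library as a block and Benjamini-Hochberg adjustment, as for every adjusted p of an allele effect given here). A gene is said to pass where its adjusted p is under 0.05. The allele effect is the log2 of the Ler over the Col allele, so a positive value means more Ler counts. Genes on TAIR10 chromosome 4 from 14700000 to 16200000, chromosome 2 from 6200000 to 6800000 and chromosome 3 up to 1400000 are described apart, at the end. The 15991 other tested genes with a nuclear position are called outside the intervals.

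The targeted gene itself was read almost wholly from its Col allele. PRMT5 (AT4G31120, SKB1 in RefSeq, chromosome 4 from 15132011 to 15136696 in TAIR10.1) had 0, 0 and 2 Ler counts beside 199, 150 and 200 Col counts in libraries 25, 26 and 28. In libraries 29, 30 and 32 it had 0 Ler counts beside 139, 265 and 102 Col counts. The Ler share over the 6 libraries was 0.189% (exact 95% binomial interval 0.0229% to 0.682%), against 53.1% (49.98% to 56.1%) in WT F1. Even in the shallowest library, 0 of 102 counts allows a Ler share of up to 2.94%. In the mutant parents the gene stood at 33.8 ± 3.57 CPM in Ler prmt5-5 and 34.4 ± 3.83 CPM in Col prmt5-5 (SD, n = 3 each; edgeR log2 -0.02, adjusted p = 0.917). Counts of PRMT5 mRNA do not read the mutation, which these tables do not show. Such intervals cover counting error only, and would be narrower than they should be if fragments were counted from both ends: 71.2% to 79.1% of the values from 1 to 20 were even in these libraries.

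Outside the intervals, 5018 of 15991 genes passed, or 31.4%. The Ler allele was higher for 2403 (15%) and the Col allele for 2615 (16.4%), and the median allele effect over all genes was -0.00. Most differences were small: among the genes that passed, the median size was 0.53 on the log2 scale, with the middle 50% between 0.29 and 1.17. A total of 1439 differed at least 2-fold, 661 with more Ler and 778 with more Col counts, and 723 at least 4-fold. Scaling each allele column on its own gave 2812 genes with a higher Ler and 2256 with a higher Col allele, and moved the median to 0.03.

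Depth set how small a difference could pass. Of the 3999 genes with the fewest counts (12 to 404 over the 6 libraries), 21% passed, with a median size of 2.03. Of the 3998 with the most counts (3465 or more), 49.6% passed, with a median size of 0.28. Small differences were therefore not detectable for weakly expressed genes or for genes with few bases that tell the alleles apart. By kind of gene, 30.6% of 15403 protein-coding genes passed and 71.3% of 181 pseudogenes, of which 121 differed at least 2-fold. Transcribed pseudogenes passed in 53.2% of 139 cases, long noncoding RNAs in 28.8% of 146 and snoRNA genes in 22.7% of 22. The 5 chromosomes ranged from 27.9% (chromosome 2) to 34.8% (chromosome 4).

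The reciprocal crosses were also fitted apart. In F1 Col x Ler prmt5-5, 1731 genes (10.8%) had a higher Ler and 1871 (11.7%) a higher Col allele outside the intervals, 22.5% in all. In F1 Ler x Col prmt5-5 the numbers were 1624 (10.2%) and 1838 (11.5%), 21.6% in all. With each allele column scaled on its own, more genes had a higher Ler allele in both, 2055 against 1660 in Col x Ler and 1879 against 1638 in Ler x Col. A total of 2690 genes passed in both, 74.7% of the Col x Ler set and 77.7% of the Ler x Col set, and 2689 of them had the same direction. The difference between crosses itself passed for 0 of 16644 genes (0.0%) with edgeR, where 639 had an unadjusted p under 0.05 (3.84%), and for 1 gene with DESeq2. An imbalance that follows the order of the parents was thus not detected at this depth.

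Much of the imbalance was also present in WT F1, whose libraries share no sample with the mutant ones. Of the 5018 genes that passed in prmt5-5 F1, 3715 (74.0%) passed in the same direction in WT F1, 15 passed in the opposite direction and 1288 did not pass there. In all, 30.7% of the genes outside the intervals passed in WT F1, 14.4% with a higher Ler and 16.3% with a higher Col allele. Of the 1439 genes with at least a 2-fold difference, 1263 (87.8%) passed in the same direction in WT F1, and none passed in the opposite one. Across 15991 genes the allele effects in prmt5-5 and WT F1 had a Spearman correlation of 0.717, given as a description because genes are not independent replicates.

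In the mutant parents the same genes were read in separate plants. Between Ler prmt5-5 and Col prmt5-5 seedlings, 28.7% of 21916 genes outside the intervals passed, 14.3% higher and 14.4% lower in Ler. Of 5001 genes that passed between alleles and were tested in the parents, 2714 (54.3%) passed in the same direction, 123 in the opposite direction, and 2164 (43.3%) did not pass. Among those with at least a 2-fold allele difference, 1055 of 1422 (74.2%) passed in the same direction. The Spearman correlation across 15964 genes was 0.551. The parental counts do not depend on assigning reads to an allele. TAIR10, which is of the Col accession, is the only genome named in the processing notes. Whether Ler reads were lost in mapping, in parents or hybrids, was not tested.

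**Figure D1:**
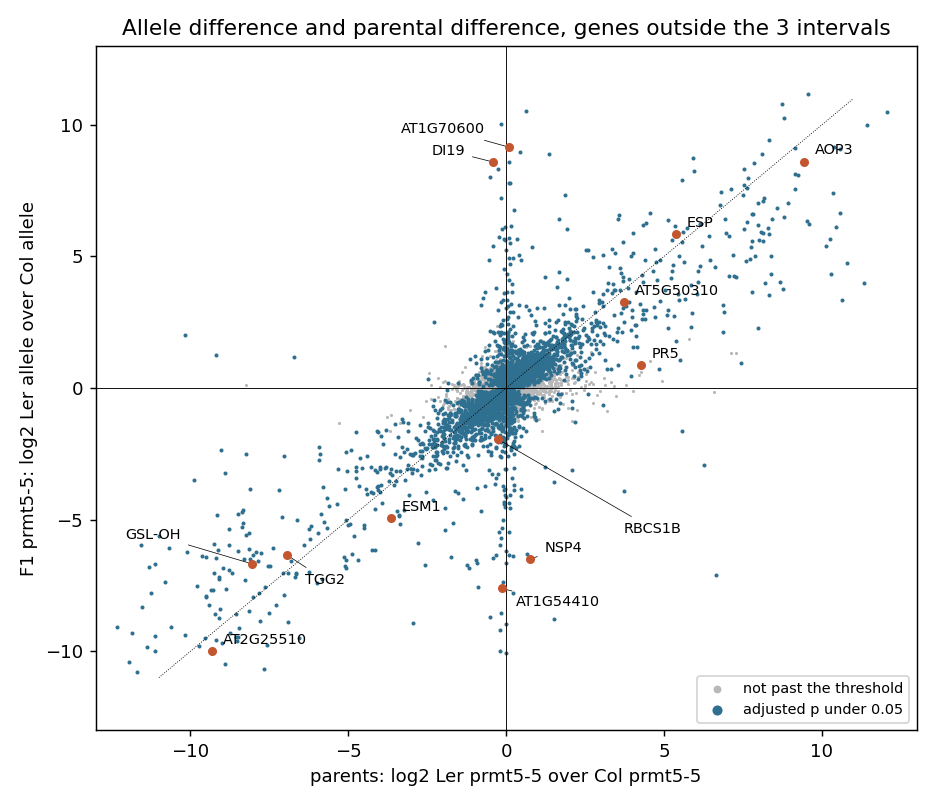
Log2 of the Ler over the Col allele in prmt5-5 F1 (vertical) against log2 of Ler prmt5-5 over Col prmt5-5 parents (horizontal) for 15964 genes outside the 3 intervals; each point is 1 gene, blue where the allele effect passed at an adjusted p under 0.05, orange for genes named in the text, and the dotted line marks equal values. Many genes lie near the dotted line, and a column of points at a parental difference near 0 holds genes such as AT1G70600 and AT1G54410 with nearly all counts on a single allele.

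Nearly all counts came from a single allele for 79 genes with at least 600 counts and under 2% on the other allele, 32 on the Ler and 47 on the Col side. All 79 passed in the same direction in WT F1. Of 78 tested in the parents, 55 differed at least 4-fold in the same direction, 22 differed less than 2-fold, and 1 did neither. AOP3, a dioxygenase that turns methylsulfinylalkyl into hydroxyalkyl glucosinolates, is of the kind where the parents differ too. It had 2451, 1674, 3054, 1382, 2474 and 773 Ler counts in libraries 25, 26, 28, 29, 30 and 32, beside 4, 2, 15, 4, 4 and 2 Col counts. The allele effect was 8.60 ± 0.13 (SE; adjusted p = 7.3e-17), and the parents stood at 192.5 ± 15.5 CPM in Ler prmt5-5 and 0.273 ± 0.139 CPM in Col prmt5-5 (SD, n = 3 each).

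On the Col side, AT2G25510, which encodes an uncharacterized protein, had 10, 0, 22, 0, 12 and 0 Ler counts beside 5023, 2542, 14105, 2429, 14362 and 1941 Col counts in the same order of libraries. Its Col counts were highest in libraries 28 and 30, which also led in the salicylic acid list, while the Ler share stayed at or below 0.199% in all 6. The parents stood at 0.556 ± 0.245 CPM in Ler prmt5-5 and 362.8 ± 34.2 CPM in Col prmt5-5. The cysteine-rich receptor kinase gene CRK4 had 12 Ler and 5885 Col counts in all, and its parents 0.0756 ± 0.0655 CPM in Ler prmt5-5 and 17.7 ± 6.30 CPM in Col prmt5-5. The retroelement-derived SADHU1-1 had 18 Ler and 11311 Col counts.

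In the other kind the parents differed less than 2-fold. AT1G70600, a ribosomal protein gene of the L18e/L15 family, had 42650 Ler and 75 Col counts over the 6 libraries, with shares of 99.77% to 99.95%. Its parents stood at 349.6 ± 23.4 CPM in Ler prmt5-5 and 328.8 ± 18.2 CPM in Col prmt5-5 (log2 0.09, adjusted p = 0.551). The dehydrin gene AT1G54410 had 566 Ler and 107846 Col counts, with parents at 822.8 ± 64.2 CPM in Ler and 911.5 ± 44.4 CPM in Col prmt5-5. AT1G07940, an elongation factor Tu family gene, had 37723 Ler and 25 Col counts, and DI19, named for its induction by drought, 9563 and 24. Their parents differed by 0.64 (adjusted p = 0.000103) and -0.42 (adjusted p = 0.0558) on the log2 scale. AT1G70600, AT1G54410, AT1G07940 and DI19 showed the same share in WT F1 to within 0.1 percentage points of the mutant one, and nothing in the labels states the rule that assigned their reads to an allele.

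Glucosinolate genes held several of the strongest differences. Glucosinolates are the sulfur-rich defence compounds of the mustard family: they are built from chain-elongated methionine, their side chains are then modified, and on wounding myrosinases and specifier proteins release the active products. Col and Ler are known to differ in these side chains and products. Of 25 tested genes of aliphatic glucosinolate synthesis, 7 had a higher Ler and 8 a higher Col allele (60%, against 31.4% of all genes outside the intervals), with a median effect of -0.08. Here and for the later lists, this comparison was not matched for depth, with which the share that passed rose.

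For chain elongation, the synthase gene MAM1 was lower on the Ler allele, with 8939 Ler and 23223 Col counts and shares of 26.1% to 30.6% (-1.35 ± 0.04 SE, adjusted p = 3.6e-21). Its neighbour IMS2 (also known as MAM3) was higher on it, with 13485 Ler and 6557 Col counts and shares of 65.15% to 69.7% (1.05 ± 0.03). The parents differed in the same directions, by -1.18 for MAM1 and 1.16 for IMS2. The plastid transporter gene BAT5 (-1.28) and the regulator MYB29 (-1.60) were lower on the Ler allele as well, with every library under a share of 31%.

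Side-chain modification showed the largest effects. The AOP genes lie together on chromosome 4, and on the Ler allele AOP3 (8.60) and AOP1 (0.83) were higher while AOP2, which makes alkenyl glucosinolates, was lower (-1.82; 294 Ler and 972 Col counts). FMO GS-OX2, an S-oxygenase gene, had 356 Ler and 1742 Col counts (-2.31). GSL-OH (AT2G25450), a hydroxylase gene of the same pathway, had 26, 36, 90, 24, 47 and 18 Ler counts in libraries 25, 26, 28, 29, 30 and 32, beside 4105, 3455, 5318, 3321, 5498 and 1932 Col counts. Its allele effect was -6.68 ± 0.31 (SE; adjusted p = 1.8e-07), and the parents stood at 1.29 ± 0.305 CPM in Ler prmt5-5 and 348.2 ± 19.7 CPM in Col prmt5-5. CYP79F1, CYP79F2 and CYP83A1, the core cytochrome P450 genes, did not pass (-0.08, 0.07 and -0.02).

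Among myrosinases and specifier proteins, 3 of 19 tested genes had a higher Ler and 10 a higher Col allele (68.4%), and the median size of the effect was 0.64, against 0.20 over all genes outside the intervals. The myrosinase gene TGG2 had 69, 87, 88, 62, 112 and 44 Ler counts beside 7660, 5956, 9662, 5076, 8202 and 2419 Col counts (-6.35 ± 0.15, adjusted p = 1.0e-09), with parents at 6.42 ± 0.573 CPM in Ler prmt5-5 and 787.7 ± 59.6 CPM in Col prmt5-5. TGG1 was close to balance, with a Ler share of 46.9% (-0.20). The epithiospecifier gene ESP (AT1G54040), which directs breakdown to epithionitriles and nitriles, was the mirror case. It had 3928, 2869, 4137, 2806, 4108 and 1832 Ler counts beside 82, 49, 72, 39, 80 and 26 Col counts (5.85 ± 0.05, adjusted p = 1.5e-42). ESM1, a modifier that favours isothiocyanates, had 2754 Ler and 86240 Col counts (-4.94 ± 0.09).

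In the parents ESP and ESM1 differed the same way, by 5.38 and -3.64. The nitrile-specifier gene NSP4 did not: it had 64 Ler and 5818 Col counts in the hybrids (-6.50), but stood at 42.2 ± 1.04 CPM in Ler prmt5-5 and 25.1 ± 1.18 CPM in Col prmt5-5 (log2 0.76, adjusted p = 1.15e-06). The root beta-glucosidase genes BGLU21 (1.08) and BGLU22 (-1.06) lie side by side, have similar sequences and moved apart between alleles, so their split is uncertain. In the branch that makes indolic glucosinolates and camalexin, 2 of 16 genes had a higher Ler and 3 a higher Col allele (31.2%), close to the 31.4% over all genes. CYP81F4, which hydroxylates the indole ring, had 17655 Ler and 52277 Col counts (-1.56 ± 0.02), and the camalexin gene PAD3 had 329 and 1388 (-2.21 ± 0.22).

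**Figure D2:**
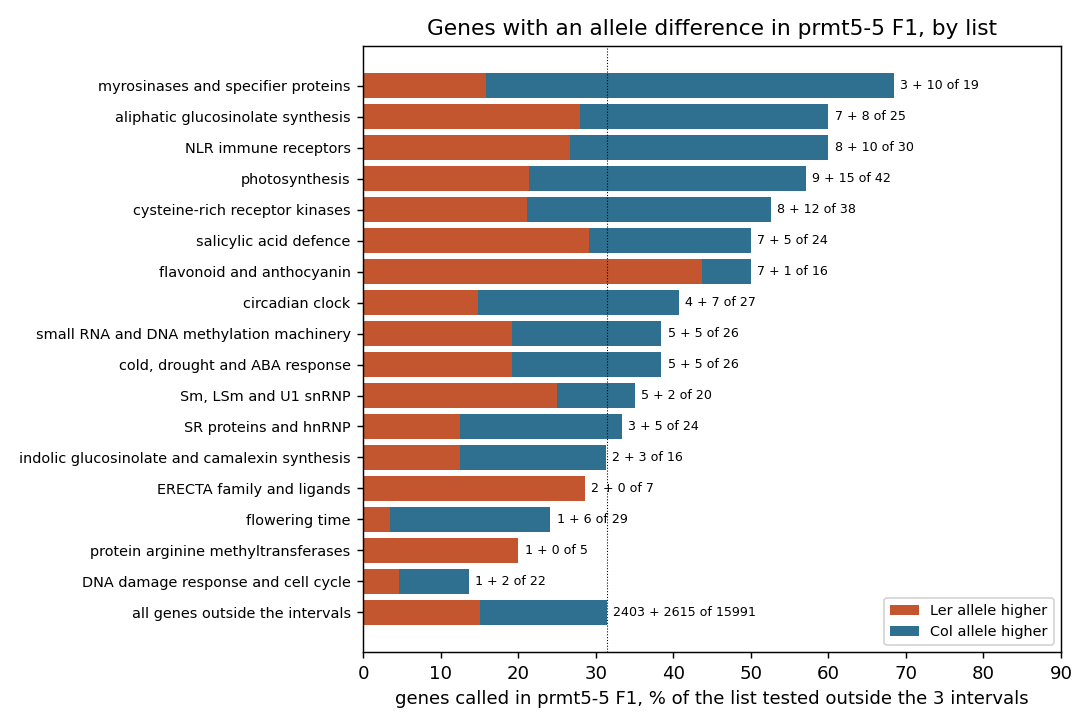
Share of the tested genes of each list, outside the 3 intervals, that passed the test between alleles in prmt5-5 F1 (horizontal, %), split into genes with a higher Ler allele (orange) and a higher Col allele (blue); the numbers are Ler plus Col out of genes tested, and the dotted line marks 31.4%, the share over all 15991 genes. Myrosinases and specifier proteins stand at 13 of 19, and genes of DNA damage response and cell cycle at 3 of 22.

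Immune receptor genes differed between alleles in both directions. Of 30 tested NLR genes, which encode intracellular receptors of pathogen effectors, 8 had a higher Ler and 10 a higher Col allele (60%). RLM3 had 9292 Ler and 18833 Col counts (-1.05 ± 0.04), RPP4 2469 and 4861 (-0.96 ± 0.07), and the TIR-type gene AT1G72930 (TIR) 10411 and 6235 (0.74 ± 0.04). Of 38 cysteine-rich receptor kinase genes, 8 had a higher Ler and 12 a higher Col allele (52.6%), and 12 differed at least 2-fold. CRK15 had 1067 Ler and 153 Col counts (2.85 ± 0.17), CRK30 2190 and 655 (1.73 ± 0.08), and CRK6 623 and 2513 (-1.95 ± 0.12). Many of these genes lie in clusters of near-identical copies, where the labels do not state how reads were split.

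For salicylic acid defence, 7 of 24 genes had a higher Ler and 5 a higher Col allele (50%). PR5, a thaumatin-like defence protein, had 312, 166, 2072, 190, 2336 and 364 Ler counts in libraries 25, 26, 28, 29, 30 and 32, beside 136, 92, 1168, 120, 1086 and 267 Col counts. Scaled to depth, PR5 stood at 202.2 CPM in library 28 and 199.5 CPM in library 30, at 104 CPM in library 32 and at 26.3 to 34.9 CPM in the other 3. The Ler share lay between 57.7% and 69.6% in all 6 (0.86 ± 0.08, adjusted p = 2.8e-10). The Ler share of the whole list was 36.6% to 42.3% in prmt5-5 F1 and 35.6% to 42.4% in WT F1. Between parents PR5 differed by 4.27, with 150.2 ± 116.7 CPM in Ler prmt5-5 and 7.80 ± 1.34 CPM in Col prmt5-5. ICS2, an isochorismate synthase gene, was higher on the Ler allele (0.94 ± 0.11), and CBP60G, a regulator of salicylic acid synthesis, was lower (-0.56 ± 0.08).

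Photosynthesis genes are among the most deeply counted, and 9 of 42 had a higher Ler and 15 a higher Col allele (57.1%). The median size was 0.11, below the 0.20 over all genes. The Rubisco small-subunit gene RBCS1B had 26666 Ler and 102093 Col counts, with shares of 19.6% to 21.7% (-1.94 ± 0.02), while its mutant parents differed by -0.27 (adjusted p = 0.0511). RBCS3B went the other way, at 66457 Ler and 15130 Col counts (2.08). The light-harvesting genes CAB3 (-1.13), LHCB2.2 (-1.06) and LHCB2.1 (-0.91) were lower on the Ler allele, whereas Ler prmt5-5 stood above Col prmt5-5 for CAB3 (0.56, adjusted p = 0.0301) and LHCB2.2 (0.65, adjusted p = 0.0118). These genes have near-identical copies, and how reads shared between copies were counted is not given.

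Clock genes run the daily rhythm of the seedling and set the season of flowering with the flowering-time genes. Of 27 clock genes, 4 had a higher Ler and 7 a higher Col allele (40.7%). The repressor gene PRR7 had 8993 Ler and 4424 Col counts, with shares of 64.5% to 71.3% (1.04 ± 0.05), and its parents differed by 1.39. The RNA-binding protein gene GRP7, an output of the clock, had 345 Ler and 1264 Col allele counts (-1.90 ± 0.14), although it stood at 731.3 ± 27.7 CPM in Ler prmt5-5 and 726.8 ± 109.8 CPM in Col prmt5-5. The allele counts of GRP7 were few beside these levels, so its ratio may rest on a small part of its reads. CCA1 and LHY, the morning transcription factor genes, did not pass (0.05 and 0.13). Of 29 flowering genes, 1 had a higher Ler and 6 a higher Col allele (24.1%), or 4 in all with DESeq2. The vernalization-pathway gene FRI had 114 Ler and 618 Col counts (-2.43 ± 0.20).

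Genes of the splicing machinery passed about as often as all genes outside the intervals (31.4%). Of 20 Sm, LSm and U1 snRNP genes, 5 had a higher Ler and 2 a higher Col allele (35%), and none differed 2-fold. SMD1B (AT4G02840), a core Sm protein gene, had 4016 Ler and 3412 Col counts (0.23 ± 0.05, adjusted p = 0.000362), and LSM3A 2728 and 2355 (0.22 ± 0.06, adjusted p = 0.00568). The count was 4 without library 30, and also without libraries 28 and 30 together. Of 24 SR and hnRNP genes, which bind pre-mRNA and guide splice-site choice, 3 had a higher Ler and 5 a higher Col allele (33.3%), or 5 in all without libraries 28 and 30. The median size was 0.20, as over all genes, and 4 differed at least 2-fold, among them PTB3 at -1.08 ± 0.05 and RS31a at 1.2 ± 0.19. RSZ22a rested on 64 Ler and 4 Col counts. Among 5 arginine methyltransferase genes tested outside the intervals, PRMT1A passed, with 3083 Ler and 2140 Col counts (0.54 ± 0.07).

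Of 26 cold, drought and abscisic acid response genes, 5 had a higher Ler and 5 a higher Col allele (38.5%). The cold-induced genes KIN2 (-2.24 ± 0.05) and KIN1 (-1.35 ± 0.10) and the drought-induced RD22 (-1.65 ± 0.19) were lower on the Ler allele. Flavonoid and anthocyanin genes, which make the pigments of stressed seedlings, passed with a higher Ler allele for 7 of 16 and with a higher Col allele for 1 (50%). UF3GT (0.96 ± 0.08), chalcone isomerase TT5 (0.66 ± 0.06) and the vacuolar carrier gene GSTF12 (0.38 ± 0.06) were higher on the Ler allele. In the parents UF3GT (-0.96, adjusted p = 0.021) and GSTF12 (-0.91, adjusted p = 0.00802) were lower in Ler prmt5-5. TT5 differed by -0.10 there (adjusted p = 0.632).

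Of 26 genes of small RNA and DNA methylation, 5 had a higher Ler and 5 a higher Col allele (38.5%), among them SGS3 (1.03 ± 0.11) and AGO7 (0.85 ± 0.08), both of the pathway of trans-acting small RNAs, and the demethylase gene DML1 (-0.82 ± 0.09). Of 7 genes of the ERECTA family and its ligands, ERL1 (0.62 ± 0.20) and STOMAGEN (0.25 ± 0.07) passed with a higher Ler allele, and ERECTA itself did not pass (0.16). ERL1 did not pass without library 25, without libraries 28 and 30, or with DESeq2. DNA damage and cell cycle genes passed in 3 of 22 cases (13.6%), with the checkpoint kinase gene ATR at -0.71 ± 0.14.

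The test of the difference between genotypes asks which allele ratios changed with prmt5-5. Outside the intervals, 368 of 15991 genes passed (2.3%). The Ler allele gained relative to the Col allele for 185 (1.16%) and lost for 183 (1.14%). With each allele column scaled on its own, the split was 268 gained and 144 lost. The median size of these changes was 0.45 on the log2 scale, and 60 were at least 2-fold, 27 up and 33 down. The imbalance was larger in prmt5-5 than in WT F1 for 194 and smaller for 174, and for 107 the effects had opposite signs. Only 15 of these 107 passed between alleles in both genotypes.

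AT5G50310, a kelch-repeat protein gene on chromosome 5 (20474457 to 20479478, TAIR10.1), had the clearest change. It had 508, 381, 580, 406, 594 and 201 Ler counts in libraries 25, 26, 28, 29, 30 and 32, beside 65, 25, 45, 53, 60 and 25 Col counts. The Ler share was 90.6% ± 2.3 in prmt5-5 F1 and 53.5% ± 3.10 in WT F1 (SD, n = 6 each), and the lowest mutant library (88.5%) lay above the highest WT library (57.7%). Groups that do not overlap were required by the rule that named the genes of largest change, so their separation is no added support. The change was 3.08 ± 0.13 (SE; adjusted p = 7.4e-22). The Col allele stood at 3.80 ± 1.03 CPM of all allele counts in prmt5-5 F1 and 26.7 ± 2.76 in WT F1, and the Ler allele at 36.5 ± 2.44 in prmt5-5 F1 and 30.7 ± 3.42 in WT F1.

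In the parental plants AT5G50310 was low in Col prmt5-5 as well. Ler prmt5-5 stood at 54.5 ± 2.25 CPM and Col prmt5-5 at 4.1 ± 0.290 CPM (log2 3.73 ± 0.08 SE, adjusted p = 1.5e-13). The WT parents, given without a test, stood at 45.1 ± 3.02 CPM in Ler WT and 45.0 ± 2.36 CPM in Col WT (SD, n = 3 each). Expression of the Col copy was thus low in the mutant libraries of both kinds, hybrid and parental, and the Ler copy was not.

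Since the series is about donor splice sites, the annotated donors of AT5G50310 were read from the TAIR10.1 reference, which is of the Col accession. Each is written with the last 3 exon bases in lower case and the first 6 intron bases in capitals, in transcript order, 5′ to 3′. All 19 donors begin with GT, and 14 have a G as the fifth intron base, the base that pairs with the U1 snRNA in the common form GTAAGT. Of all 126288 annotated donors of protein-coding genes, 98.7% begin with GT, 48.6% match GTNNG and 9.06% match GTAAGT. The 5 donors of AT5G50310 without that G, with the only GTAAGT donor after them, are these on the plus strand of chromosome 5.
intron 1, chr5:20474691-20474699: ctcGTAATT
intron 4, chr5:20475408-20475416: ttgGTAGAT
intron 7, chr5:20476232-20476240: aagGTAGTA
intron 8, chr5:20476568-20476576: aagGTAAAC
intron 16, chr5:20478485-20478493: gagGTACTA
intron 6, chr5:20475720-20475728: atgGTAAGT
These letters describe the reference only. The Ler sequence was not used here, and counts per gene do not show at which intron, if at any, splicing differed between alleles.

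AT4G02850, annotated as a PhzC/PhzF family protein gene, changed in the same direction from another starting point. It had 106, 53, 90, 71, 131 and 42 Ler counts in the 6 mutant libraries, beside 516, 262, 397, 273, 499 and 167 Col counts. The Ler share was 18.98% ± 1.79 in prmt5-5 F1 and 5.69% ± 2.23 in WT F1 (change 1.88 ± 0.19, adjusted p = 1.15e-06). The groups did not overlap, as the naming rule required. The Ler allele stood at 6.71 ± 1.12 CPM in prmt5-5 F1 and 2.92 ± 0.988 in WT F1, and the Col allele at 28.8 ± 5.81 in prmt5-5 F1 and 49.9 ± 6.38 in WT F1. Its end overlaps the end of the Sm gene AT4G02840, so part of its reads is uncertain. It has 5 annotated donors on the minus strand of chromosome 4, of which 1 has a G as the fifth intron base, written as before.
intron 1, chr4:1268525-1268533: atgGTAATT
intron 2, chr4:1267577-1267585: gagGTCCAT
intron 3, chr4:1267167-1267175: atcGTATGT
intron 4, chr4:1266928-1266936: gagGTTAAG
intron 5, chr4:1266726-1266734: gcgGTAATT

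Of the other genes in which the Ler allele gained, AT5G66180, a methyltransferase-like gene, had a Ler share of 10.4% ± 2.79 in prmt5-5 F1 and 2.00% ± 1.91 in WT F1 (2.1 ± 0.53, adjusted p = 0.0101). Its mutant parents were level, at 60.9 ± 18.2 CPM in Ler and 61.3 ± 7.73 CPM in Col prmt5-5. The WT parents, given without a test, stood at 52.3 ± 7.26 CPM in Ler and 61.7 ± 7.86 CPM in Col. Its Ler and Col alleles stood at only 0.749 and 6.75 CPM of all allele counts in prmt5-5 F1, and 0.0867 and 4.44 in WT F1. The allele ratio of AT5G66180 may thus rest on a small part of its reads. AT2G42485 had 49 Ler and 730 Col counts in prmt5-5 F1, against 4 and 776 in WT F1 (4.52 ± 0.67, adjusted p = 3.85e-06). The fitted size depends on the prior count of the fit, since so few WT counts were Ler, and this holds too for AT5G66180, with 10 Ler and 384 Col counts in WT F1. The chitinase family gene AT2G43590 had a Ler share of 45.3% ± 6.55 in prmt5-5 F1 and 20.7% ± 7.52 in WT F1 (1.65 ± 0.31, adjusted p = 0.02285). Its call was lost when libraries 28 and 30 were left out together (1.41, adjusted p = 0.1245). It was also lost without library 18, 19, 20, 23, 26, 28 or 30 alone, with changes of 1.53 to 1.70 and adjusted p-values of 0.0561 to 0.0735.

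In the 5 named genes in which the Ler allele lost ground, Col counts were few in WT F1 and made up more of the total in the mutant. AT3G44790, of the TRAF-like family, had a Ler share of 71.1% ± 6.43 in prmt5-5 F1 and 94.1% ± 4.34 in WT F1 (-2.71 ± 0.39, adjusted p = 1.9e-06). Its Col allele stood at 3.04 ± 0.855 CPM in prmt5-5 F1 and 0.257 ± 0.178 in WT F1, and the Col parents at 1.51 ± 0.107 CPM for Col prmt5-5 and 0.197 ± 0.153 CPM for Col WT. AT4G29760, annotated as a target of trans-acting small RNA, had 935 Ler and 70 Col counts in prmt5-5 F1, against 653 and 8 in WT F1 (-2.64 ± 0.49, adjusted p = 0.000177). It lies at 14573600 on chromosome 4, just before the interval around PRMT5. The Col parents stood at 1.07 ± 0.205 CPM for Col prmt5-5 and 0.0558 ± 0.0723 CPM for Col WT.

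AT5G35965 had 849 Ler and 61 Col counts in prmt5-5 F1, against 1089 and 6 in WT F1 (-3.28 ± 0.57, adjusted p = 7.0e-05). AT5G15360 had 3491 and 120 in prmt5-5 F1, against 4367 and 15 in WT F1 (-3.31 ± 0.57, adjusted p = 0.00824). With so few Col counts in WT F1, these effects depend on the prior count as well. For AT5G26970, encoding an uncharacterized protein, the Ler share was 65.2% ± 7.46 in prmt5-5 F1 and 88.0% ± 5.93 in WT F1 (-1.93 ± 0.34, adjusted p = 7.0e-05). In all 5 genes the 6 mutant libraries lay below all 6 WT libraries, which the rule that named them required. The Col parents of AT5G26970 were near 0 in both genotypes, at 0.0103 ± 0.0178 CPM for Col prmt5-5 and 0.0364 ± 0.0315 CPM for Col WT.

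**Figure D3:**
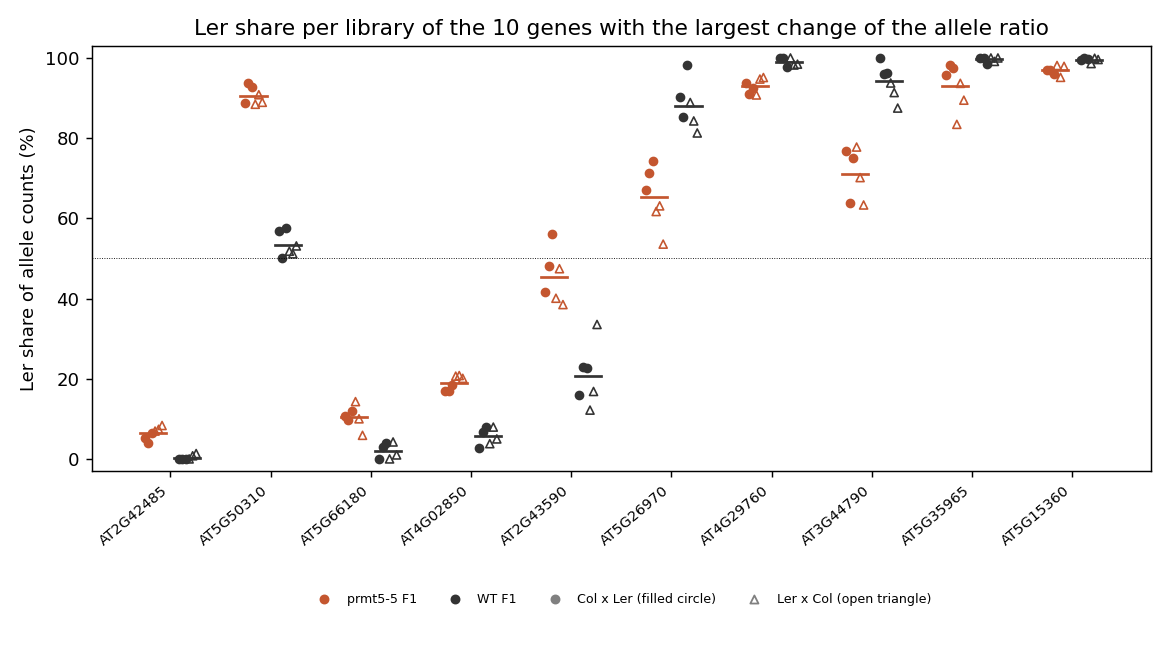
Ler share of allele counts (vertical, %) per library for the 10 genes with the largest change of the allele ratio, prmt5-5 F1 in orange left of WT F1 in black, with filled circles for Col x Ler, open triangles for Ler x Col and a bar at the mean of 6 libraries. In AT5G50310 the mutant libraries sit between 88.5% and 93.8% and the WT libraries between 50.2% and 57.7%. Genes were taken only where the mutant and WT groups did not overlap.

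Among the pathway lists, against 2.3% of all genes outside the intervals, the ratio changed for 5 of 42 photosynthesis genes, 4 of 19 genes of myrosinases and specifier proteins and 4 of 30 NLR genes. The 5 photosynthesis changes were small, from -0.11 for RBCS2B and CAB3 to 0.11 for the photoprotection gene NPQ4. The Ler allele gained in ESP (0.41 ± 0.07), BGLU21 (0.30) and BGLU18 (0.27) and lost in MBP1 (-0.50), which encodes a myrosinase-binding protein. Of the NLR genes it gained in RPP7 (AT1G58602; 0.38) and RPP8 (0.19) and lost in RPP4 (-0.41) and TIR (-0.21). Elsewhere it gained in MAM1 (0.32 ± 0.05) and PRR7 (0.45 ± 0.07) and lost in CRK30 (-0.95 ± 0.12). The Sm, LSm and U1 list held 2 of 20, LUC7RL (AT5G51410; -0.36 ± 0.09) and PRP40A (-0.28, adjusted p = 0.0144), both of U1 snRNP proteins, and the SR and hnRNP list none of 24. The anthocyanin regulator PAP1 (AT1G56650) had its Ler allele lower in prmt5-5 F1 (-0.43) and higher in WT F1 (0.74), a change of -1.18 (adjusted p = 5.5e-06).

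Inside the chromosome 4 interval, counts of the Ler allele were nearly absent. Here, as in the other intervals, lower expression of a Ler copy and a lack of Ler sequence cannot be told apart from these counts. Of 240 tested genes, 232 had a higher Col allele and 0 a higher Ler allele (96.7%), and the median effect was -7.89. The Ler share of the summed counts was 1.1% ± 0.188 in prmt5-5 F1 and 50.1% ± 0.161 in WT F1 (SD, n = 6 each), with 0.966% to 1.47% in single mutant libraries. Around PRMT5, a run of 218 genes with at least 60 counts and a WT Ler share of 20% to 80% had a median Ler share of 0.327% in prmt5-5 F1, and 214 of them were under 10%. The run began at HMA3 (14730215) and ended at AT4G33690 (16176328). The next such genes, HMA2 before it and AT4G33730 after it, stood at 49.2% and 47.1%, and none of the other 230 such genes within 1500 kb was under 10%.

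The 4 most counted genes of the interval show its depth. GLDP1, the P-protein of glycine decarboxylase in photorespiration, had 209 Ler and 65894 Col counts in prmt5-5 F1, against 41249 and 39774 in WT F1. AT4G32020 had 116 and 53342, AT4G32060 53 and 20384, and the helper immune receptor gene ADR1-L1 32 and 18203 in prmt5-5 F1. A few genes kept a larger Ler share, such as PDE327 (33.3% in prmt5-5 F1, 62.2% in WT F1) and the lariat debranching enzyme gene DBR1 (13.3% and 49.4%). Lariat debranching is a step of intron turnover. Between the mutant parents, 12.6% of the interval's genes passed, against 28.7% outside the intervals. Among the listed splicing genes in the interval, the SR protein gene RSZ22 had a Ler share of 0.333%, while the Sm genes SMEA (AT4G30330) and SMFA (AT4G30220, RUXF in RefSeq) had 0 and 2 Ler beside 3 and 16 Col counts and were not tested.

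**Figure D4:**
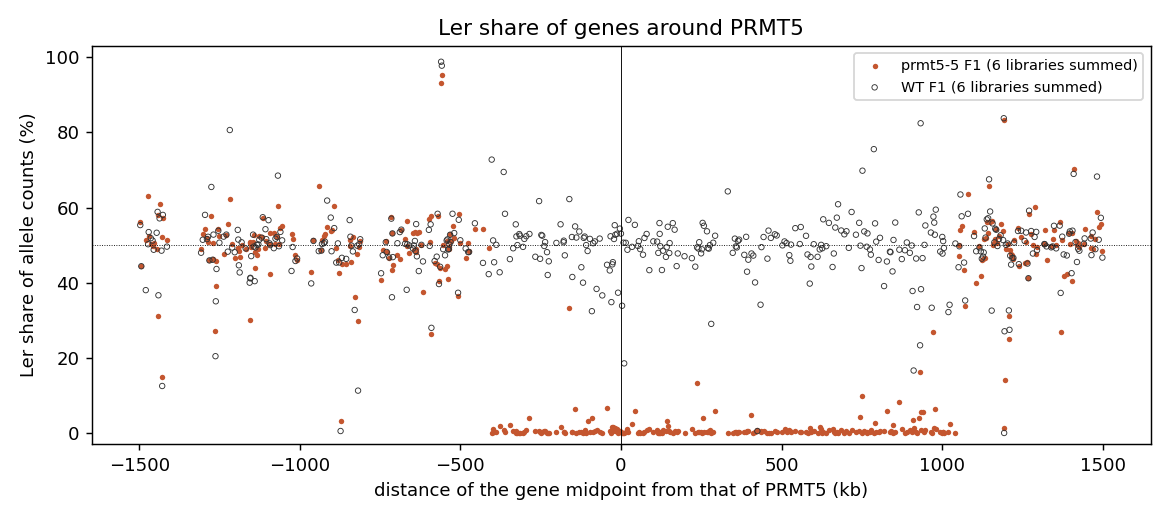
Ler share of allele counts (vertical, %) of genes within 1500 kb of PRMT5 with at least 60 counts in each genotype, against the distance of the gene's midpoint from that of PRMT5 (kb); orange points are prmt5-5 F1 and open black circles WT F1, each summed over 6 libraries. Mutant shares drop to a median of 0.327% over a run from 402 kb before to 1041 kb after PRMT5, and the WT genes of that run have a median of 50.1%.

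The chromosome 2 interval was lowered in part, and not equally in every library. Of 43 tested genes, 2 had a higher Ler and 36 a higher Col allele (88.4%), with a median effect of -2.82. Fitted on the prmt5-5 F1 libraries alone, 29 genes passed, in place of 38. The Ler share of the summed counts was 19.4%, 22.6%, 21.3%, 5.62%, 29.98% and 22.4% in libraries 25, 26, 28, 29, 30 and 32, against 48.8% to 50.1% in WT F1. Library 29 (F1 Ler x Col prmt5-5, replicate 1) was the lowest. These sums include the genes at the edges, and the median share of genes with at least 20 counts was 14.3%, 19.35%, 7.86%, 0%, 20.4% and 19.6% in the same order, so library 28 was the second lowest by that measure. TIC21, a chloroplast import gene, had 450, 448, 344, 12, 903 and 300 Ler counts beside 3548, 2600, 4419, 3609, 4236 and 1737 Col counts. AT2G14910 had no Ler count among 1848 in library 29, which allows a share of up to 0.162% there, and shares of 5.5% to 18.5% in the other 5.

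Genes at either edge of the chromosome 2 interval did not show a drop of this size, so the lowered stretch was shorter than the interval. LURP1, PRB1 and the defence marker PR1 lie at its start, with Ler shares over the mutant libraries of 55.1%, 54.4% and 50.2%. Their shares in WT F1 were 58.1%, 55.8% and 63.98%. FUT4, UGT73B5, MBR1 and AT2G15560 lie at its end, with 47.1%, 53.3%, 46.6% and 40.5%, against 45.0%, 54.2%, 48.2% and 47.1% in WT F1. Between the edges, from AT2G14660 (6272469) to FUT5 (ending at 6699836), the highest Ler share in library 29 was 2.19%, in VSR3, among genes with at least 20 counts in every mutant library and a WT share of 20% to 80%.

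The chromosome 3 interval differed most between libraries. Of 297 tested genes, 4 had a higher Ler and 215 a higher Col allele (73.7%), with a median effect of -1.51. Within a library, Ler shares were similar along most of the interval. Calls of such neighbouring genes are not independent, here or in the other intervals. These calls depend on the spread of the WT F1 libraries, which were part of the fit. Fitted on the prmt5-5 F1 libraries alone, 77 genes passed here, in place of 219. Leaving out single libraries gave 152 (without library 28) to 280 (without library 29). The Ler share of the summed counts was 35.9%, 21.7%, 12.7%, 48.0%, 9.55% and 30.4% in libraries 25, 26, 28, 29, 30 and 32, against 47.7% to 48.4% in WT F1. Library 29 was therefore close to the WT values here, although it was the lowest on chromosome 2. GAPC1, a glycolytic dehydrogenase gene, had 2911, 1215, 1386, 4136, 2046 and 1491 Ler counts beside 4690, 3857, 8209, 3732, 11123 and 3236 Col counts. Its Ler share thus ran from 14.4% to 52.6%, and the change from WT F1 was -1.46 ± 0.47 (adjusted p = 0.205).

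In library 30 the tip of chromosome 3 stood apart from the rest of the interval. Over the 67 genes up to AT3G01890 (ending at 312073) its Ler share was 0.413%, against 15.5% over the other 194 genes. Library 28 had 11.5% over the tip and 13.6% over the rest, and library 25 had 33.9% and 37.2%. CA1, a carbonic anhydrase gene in the tip, had 363 Ler and 82082 Col counts in library 30, and 23804 and 50293 in library 25. CA1 did not pass over both crosses (-2.26 ± 0.84, adjusted p = 0.0748).

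Outside the intervals the libraries lay close together. The Ler share of the summed counts was 49.1% ± 0.118 in prmt5-5 F1 and 48.6% ± 0.177 in WT F1 (SD, n = 6 each). Within 0.5 Mb of the intervals, the Ler allele gained in 2 and lost in 5 of 359 tested genes, and farther away it gained in 183 and lost in 178 of 15632.

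**Figure D5:**
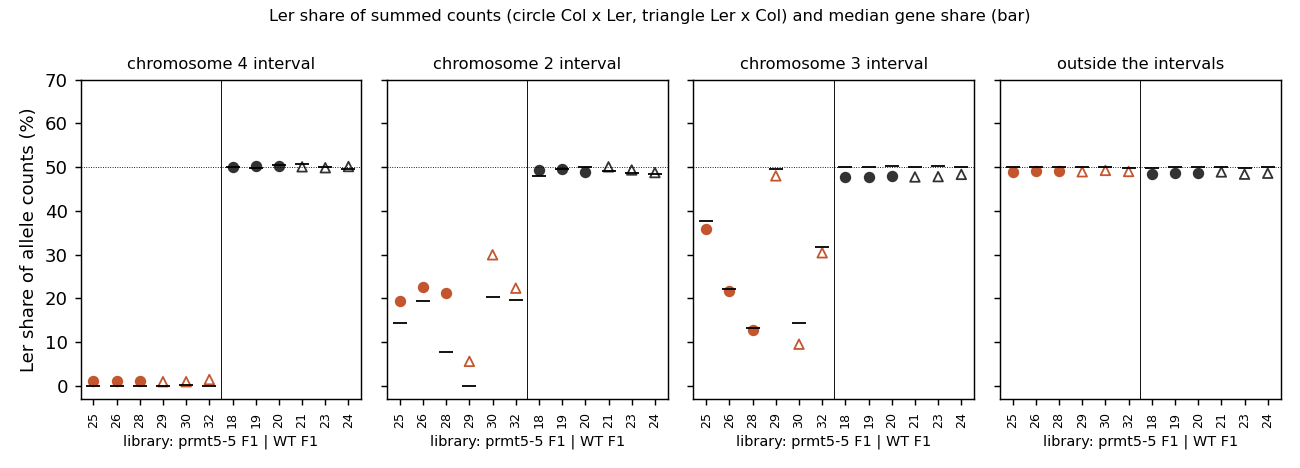
Ler share of the summed allele counts (vertical, %) in each F1 library for the 3 intervals and for the genes outside them, prmt5-5 libraries in orange left of WT libraries in black, circles for Col x Ler and triangles for Ler x Col; short bars mark the median share of genes with at least 20 counts. The mutant libraries lie together near 1% on chromosome 4 and spread from 5.62% to 29.98% on chromosome 2 and from 9.55% to 48.0% on chromosome 3.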

How the data were processed

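Per the labels' protocols, RNA from whole seedlings was made into TruSeq libraries. The authors deposited whole-number counts per gene, in the F1 tables as separate Ler and Col allele columns for each library. Trim Galore, FastQC, STAR 2.7.9a and TAIR10 are named in the submitters' processing notes. The counter, the annotation, the use of strand and the allele rule are not stated there, so overlapping genes, antisense genes and near-identical copies are uncertain. All 66 pairs of F1 libraries differed, and 0 columns lacked a sample. Of 33602 genes, 32835 matched RefSeq TAIR10.1, which gave names and positions.

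Counts were fitted in R 4.3.3 with edgeR 4.0.16 (robust quasi-likelihood, two-sided) with library as a block. TMM factors came from the summed alleles, with the same library size for both alleles, after filterByExpr. P-values were adjusted over all genes tested by the Benjamini-Hochberg method, with a threshold of 0.05. DESeq2 1.42.0 was an alternative. The script was tested on simulated data. Tables were made in Python 3.11.15 with pandas 2.3.3 and scipy 1.17.1, exact intervals being Clopper-Pearson.

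The members and gene lists were chosen with earlier results of these data known. Genes were named by rule. Outside the intervals these were the 10 largest effects in each direction with a mean of at least 10 counts on both alleles, and 8 genes in each direction with the most counts and under 2% on the minor allele. Up to 4 genes per list had the smallest p, and 4 genes per interval the most counts. The 5 largest changes in each direction were taken only from genes that passed and whose mutant and WT groups did not overlap. Other list members and genes of the intervals were named after their values were seen.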

Additional observations from a re-analysis of the deposited data

Results flagged for a closer look

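The allele effect differed between prmt5-5 and WT F1, by the test of the difference itself, for 29 of the 109 named genes. This count follows in part from the naming, as the 5 largest changes in each direction were named for their change. Over all genes, 2.3% passed this test outside the intervals and 93.8% in the chromosome 4 interval. Each value here is the prmt5-5 minus the WT effect on the log2 scale, from 6 libraries each. In the chromosome 4 interval the differences were -9.40 for PRMT5 (SKB1), -8.27 for GLDP1, -8.92 for AT4G32020, -8.66 for AT4G32060 and -8.95 for ADR1-L1. In the chromosome 2 interval TIC21 differed by -2.94 (adjusted p = 0.0479), and this call was lost under several alternatives. In both intervals, lower expression of a Ler copy and a lack of Ler sequence cannot be told apart from these counts.

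Outside the intervals, the Ler allele gained most in AT2G42485 (4.52, with 4 Ler counts in WT F1), AT5G50310 (3.08), AT5G66180 (2.096), AT4G02850 (1.88) and AT2G43590 (1.65). It lost most in AT5G15360 (-3.31), AT5G35965 (-3.28), AT3G44790 (-2.71), AT4G29760 (-2.64) and AT5G26970 (-1.93), and lost 1.88 (-1.88) in AT1G44510. Of the glucosinolate genes, ESP (AT1G54040) differed by 0.41, MAM1 by 0.32, BGLU21 by 0.30, BAT5 by -0.27 and CYP81F4 by -0.22. Of the receptor genes, CRK30 differed by -0.95, RPP4 by -0.41 and TIR by -0.21. The clock gene PRR7 differed by 0.45, the LUC7 gene AT5G51410 by -0.36, and the light-harvesting genes CAB3 and LHCB2.2 by -0.110 and -0.0693. Calls of the change for AT1G44510, TIR, AT5G51410, LHCB2.2, TIC21 and AT2G43590 were lost under at least 1 alternative.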

How the results depend on the processing

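Without library as a block, the counts of genes outside the intervals that passed fell to 2741 over both crosses, 1685 in Col x Ler, 1616 in Ler x Col, 2599 in WT F1 and 88 for the change, and the gene lists together to 88. Asking for a 2-fold difference as well left 1439. Fitted on the prmt5-5 F1 libraries alone, 77 genes passed in the chromosome 3 interval in place of 219, and 29 in the chromosome 2 interval in place of 38. The difference between crosses passed for 1 gene with DESeq2, 2 without the filter on low counts, 2 with the replicate block and 1 without libraries 28 and 30, an alternative chosen after seeing the data. Leaving out single libraries gave 0 to 4 such genes, the 4 without library 30. It gave 4499 to 5232 genes over both crosses, 2705 to 3753 in Col x Ler, 2653 to 3623 in Ler x Col, 4253 to 5018 in WT F1, 302 to 357 for the change, 4776 to 6626 in the parents and 161 to 176 in the lists, and 105 to 107 of 107 named genes still passed. No named allele effect changed sign. Most named genes were chosen for passing with the same sign in every prmt5-5 F1 library, so their kept signs and calls were largely set in advance. With each allele column scaled on its own, the majority over both crosses turned to 2812 genes with a higher Ler and 2256 with a higher Col allele. By median gene share instead of summed counts, the chromosome 4 interval was at 0.0255% and the genes outside at 49.99%. Widened by 0.5 Mb, the chromosome 4 and 2 intervals held Ler shares of 25.3% and 40.7%. Without single libraries the shares were 1.025% to 1.125% on chromosome 4, 18.2% to 23.1% on chromosome 2, 22.05% to 29.75% on chromosome 3 and 49.05% to 49.11% outside. Same-numbered samples did not deviate together (correlations of -0.052 to 0.096 over 9531 genes), which cannot show whether they were grown or harvested together. With the replicate block, 2382 and 2596 genes passed over both crosses, and 196 and 191 for the change. DESeq2 lost MAF5, ERL1 and KRP2 among the named genes. Depth limits small effects of weakly expressed genes.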

Other observations

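Of 181 tested pseudogenes outside the intervals, 60 had a higher Ler and 69 a higher Col allele. The median size among those that passed was 4.79 on the log2 scale, against 0.50 among the protein-coding genes that passed. Of the noncoding RNA genes (ncRNA in RefSeq), 50.6% of 83 passed, and 28 differed at least 2-fold.

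In the intervals a few genes went against their neighbours. SADHU6-1 and AT3G04920, a ribosomal protein S24e family gene, lie on the lowered stretch of chromosome 3 with Ler shares of 98.8% and 97.2% in prmt5-5 F1, and 99.6% and 95% in WT F1. The mitochondrial gene ATMG00510 had 0 Ler counts beside 10 to 20 Col counts in each mutant library, and 0 beside 92 over WT F1, in both directions of the cross.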
